A study of Mus musculus with 67 samples.

Results

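The regions described here are the 2401 autosomal bins with the lowest DNA signal in single cells of DMSO-treated mouse embryos, out of 12005 autosomal bins that had a value in each of the 20 DMSO cells. They are the bottom 20% of those bins when ranked by the median over the DMSO cells, and are called the lowest-signal bins. A low signal in such cells is often read as late replication. That reading had no independent test in these data, so the bins are named by their signal and not as late domains. Because DMSO cells chose them, their low level in DMSO cells, and any difference measured against DMSO cells, is a description.

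The cells were single blastomeres isolated from 8-cell embryos of the strain labelled BDF1, a name used for hybrids of C57BL/6 and DBA/2 mice. Embryos of both groups were cultured in vitro in CZB medium, and their cells were separated after cytochalasin B and laser opening of the zona pellucida, so both groups carry those exposures. The DMSO group, which received the solvent alone, comprised 20 cells of 3 embryos (4, 8 and 8 cells). The Aphidicolin group was exposed to 75 ng/ml aphidicolin during the 4-cell stage and comprised 47 cells of 6 embryos (5 with 8 cells and 1 with 7). Cells are named by treatment and library number and embryos by treatment and number. The embryo is the replicate, except in a fit on single cells that is marked as such. All cells were labelled with 1 collection window, G1 to early S phase.

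In scRepli-seq the amplified genome of 1 cell is sequenced at low depth, and read density along the chromosomes stands for relative copy number. The genome is copied in a fixed temporal order: domains rich in active genes tend to be copied early in S phase, and gene-poor, lamina-associated domains tend to be copied late. A cell that has copied its early domains but not its late ones therefore carries less DNA of the late ones. Aphidicolin inhibits the replicative DNA polymerases, and at low doses it slows forks. Regions still uncopied when the cell enters mitosis, such as common fragile sites, can then break or be shared unequally between the daughter cells.

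The values are log2 ratios to the median of the same cell, in bins at steps of 200 kb on mm9, each of which holds the reads of a 1-Mb window, so neighbouring bins share reads. Over the autosomal bins, DMSO cells had from 1.47 to 2.83 M recovered reads and Aphidicolin cells from 0.739 to 2.65 M. The median lowest-signal bin held 605 reads in the median DMSO cell (345 to 782) and 579 in the median Aphidicolin cell (221 to 968). That gives counting errors of 0.059 and 0.060 on the log2 scale at the median, which cover counting only.

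The lowest-signal bins formed megabase domains rather than scattered bins. A domain is a run of neighbouring lowest-signal bins on 1 chromosome. There were 344 domains, with a median length of 0.9 Mb (quartiles 0.4 and 1.8 Mb), and 67 of them were single bins. The 172 domains of at least 1 Mb held 84.4% of the bins. Because bins 1 step apart share most of their reads, runs of this kind are partly built into the values, and lengths carry that resolution. The 5 longest domains lay on mm9 chromosome 4 from 63800001 to 73200000 (9.4 Mb), chromosome 3 from 42000001 to 50200000 (8.2 Mb), chromosome 5 from 55000001 to 62800000 (7.8 Mb), chromosome 6 from 73800001 to 81400000 (7.6 Mb) and chromosome 14 from 90200001 to 97400000 (7.2 Mb). Genes in them are not named here, since no annotation of that build was used.

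The autosomes differed in how much of them was lowest-signal. Chromosome 3 had the highest share, 34.5% of its bins, followed by chromosome 16 with 27.1%, chromosome 14 with 26.7% and chromosome 6 with 25.8%. The lowest shares were 7.90% on chromosome 19 and 9.76% on chromosome 11. Chromosome ends held fewer of them: 11.2% of the bins in the proximal 10 Mb and 13.5% in the distal 10 Mb were lowest-signal, against 21.4% of the bins in between.

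**Figure D1:**
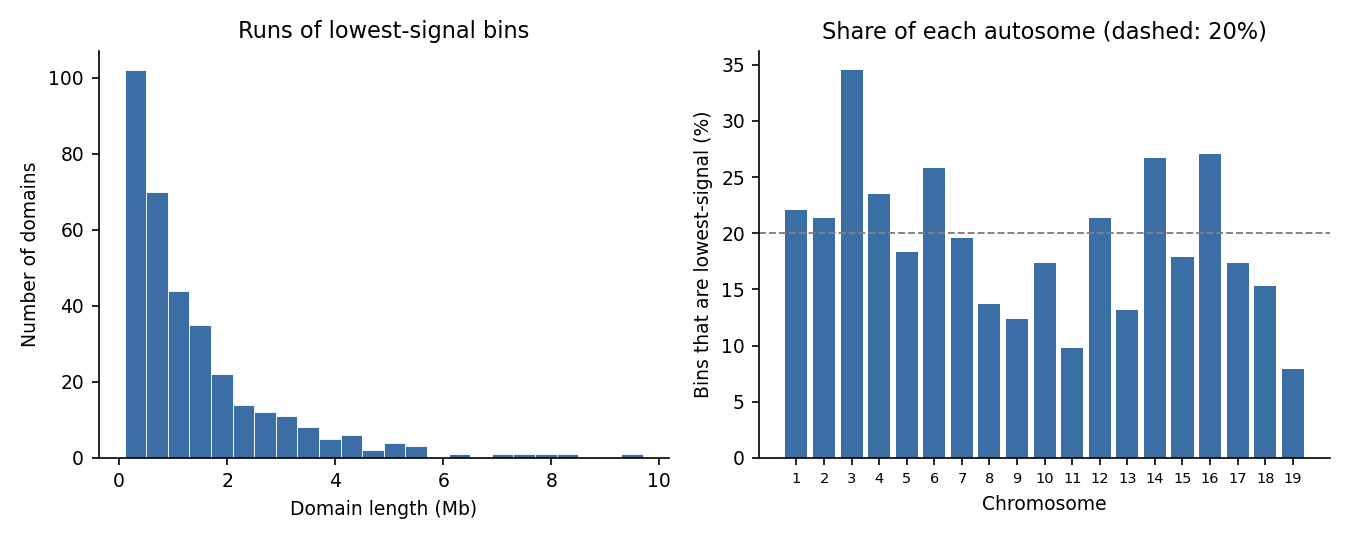
Left, number of lowest-signal domains by length in Mb (344 domains, longest 9.4 Mb); right, percentage of each autosome's bins that are lowest-signal, with a dashed line at the 20% over all autosomes. Most domains are short, and the share runs from 7.90% on chromosome 19 to 34.5% on chromosome 3.

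In DMSO cells the median value of a lowest-signal bin ran from -1.12 to -0.43, with a median of -0.55. The threshold fell in a continuous part of the distribution: the 5 bins just inside lay between -0.4334 and -0.4328 and the 5 just outside between -0.4328 and -0.4321. Longer domains were somewhat lower, up to the class of 2 to under 5 Mb. The domains are runs under a threshold on these same DMSO medians, so this order is partly built in and nothing is read from it. The median DMSO level was -0.48 in domains under 1 Mb (172 domains), -0.54 in those of 1 to under 2 Mb (93), -0.57 in those of 2 to under 5 Mb (66) and -0.57 in those of 5 Mb and over (13).

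The level of a cell is the median over the lowest-signal bins minus the median over all other autosomal bins of that cell. The levels of the 4 cells of DMSO embryo 1 were -0.79, -0.61, -0.70 and -0.65. In DMSO embryo 2 the level ran from -0.90 to -0.75 (median -0.78, 8 cells). In DMSO embryo 3 it ran from -0.80 to -0.23 (median -0.58, 8 cells). The embryo means were -0.69, -0.81 and -0.54. Cells 23 and 24 of DMSO embryo 3, at -0.23 and -0.24, stood above the other 18 DMSO cells, of which the highest was at -0.44.

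Aphidicolin cells, which had no part in the choice of the bins, also had less DNA signal there. The levels of Aphidicolin embryos 1 to 6 were -0.27, -0.29, -0.48, -0.62, -0.66 and -0.14, a mean of -0.41 ± 0.21 (SD, n = 6). All 6 were below 0, and 46 of 47 cells were. The exact two-sided sign-flip permutation test over the 6 embryos gave p = 0.03125, the smallest that 6 embryos allow, and 0.09375 after Benjamini-Hochberg adjustment over the 6 measures tested here, so the level did not pass 0.05 after adjustment. On each of the 19 autosomes taken alone, the level was below 0 in all 6 Aphidicolin embryos. In read density, the lowest-signal bins of these embryos stood at 83.1%, 81.9%, 71.8%, 64.9%, 63.5% and 90.9% of the other bins.

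Against DMSO the deficit was shallower on average, with overlap between embryos. DMSO embryos averaged -0.68 ± 0.13 (SD, n = 3), 0.27 below the Aphidicolin mean, and their read densities were 62.2%, 57.2% and 68.8% of the other bins. When each DMSO embryo was left out of the choice and then measured on the bins chosen by the other DMSO embryos, its level was -0.68, -0.79 and -0.53. Aphidicolin embryos 4 and 5 lay within this range, and embryos 1, 2, 3 and 6 above it. No test is given, since the DMSO values chose the bins. Without DMSO embryo 2 the difference was 0.21, and without DMSO embryo 3, which holds cells 23 and 24, it was 0.34.

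The Aphidicolin cells spread from near the other bins to the depth of the DMSO cells. By embryo, the lowest, median and highest cell were -0.56, -0.23 and -0.09 in embryo 1. They were -0.46, -0.29 and -0.12 in embryo 2 and -0.77, -0.49 and -0.26 in embryo 3. Embryo 4 had -0.72, -0.65 and -0.44, and embryo 5 had -0.78, -0.71 and -0.36. Embryo 6 had -0.43, -0.05 and 0.07. Of the 47 cells, 13 lay above the highest DMSO cell. Aphidicolin cell 73 was the 1 cell in which the lowest-signal bins stood above the others, at 105% of their read density.

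**Figure D2:**
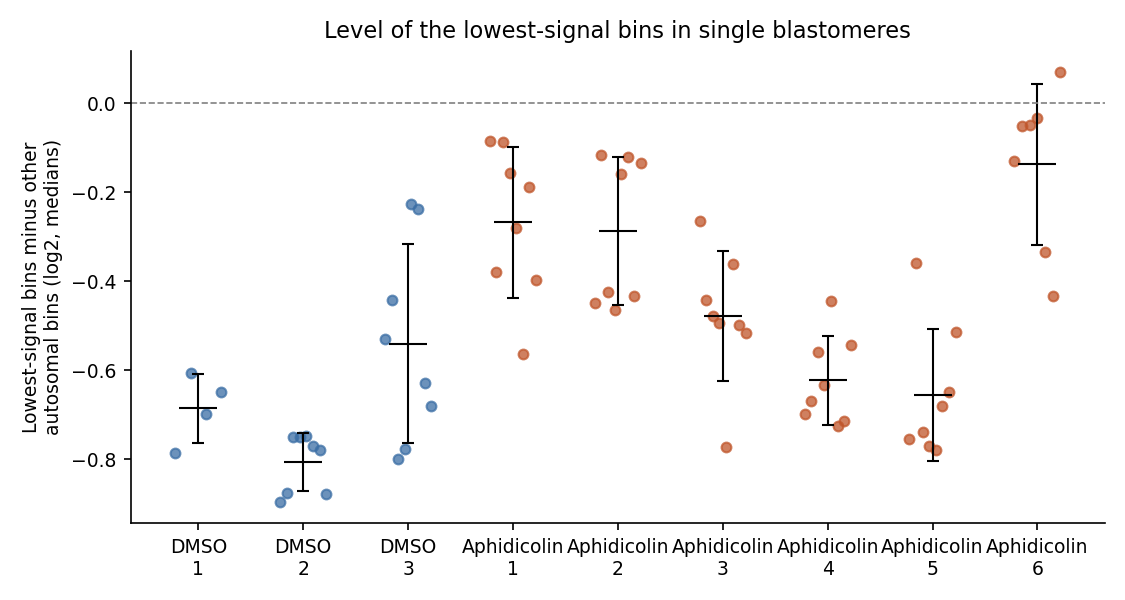
Level of the lowest-signal bins (median over them minus median over the other autosomal bins, log2) in each cell, by embryo. Points are cells (blue DMSO, orange Aphidicolin), bars the embryo mean ± SD over its cells, and the dashed line equal signal. DMSO means lie between -0.81 and -0.54 and Aphidicolin means between -0.66 and -0.14, with 1 cell above 0.

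Both ends of the profile lay closer to its middle in Aphidicolin embryos on average. Relative to the middle bins (40 to 60% of the ranking), the lowest-signal bins stood at -0.55 ± 0.14 in DMSO embryos (SD, n = 3) and -0.33 ± 0.19 in Aphidicolin embryos (SD, n = 6). The highest 20% of bins stood 0.45 ± 0.08 above the middle in DMSO and 0.35 ± 0.10 in Aphidicolin embryos. The same ranking of DMSO cells chose the lowest, middle and highest bins, so the ends of DMSO embryos are extreme partly by choice. These sides were not compared by a test, and the groups overlapped on both. The high end ran from 0.36 to 0.49 in DMSO embryos and from 0.22 to 0.48 in Aphidicolin embryos. Over the 20 DMSO cells, the height of the highest bins above the middle rose with the level (Pearson's r 0.58, Spearman's rho 0.85). Over the 47 Aphidicolin cells it fell (r -0.43, rho -0.35). The level subtracts the median of all other bins, which include the highest and the middle ones. The correlated values thus share bins, and the part of this in the correlations was not tested. For the authors' noise score per cell against the level, over the 47 Aphidicolin cells Pearson's r was -0.62 (Spearman's rho -0.47), and over the 20 DMSO cells -0.60 (rho -0.04). These values describe cells that share embryos, and the part of the score in the level was not tested. For read depth r was -0.20 (rho -0.25) over Aphidicolin cells and -0.03 (rho -0.17) over DMSO cells. For the number of autosomes with a called copy-number change r was -0.17 (rho -0.13) over Aphidicolin cells. With only chromosomes without a call, the Aphidicolin level was -0.42.

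The ranking of bins was largely shared. Of the lowest-signal bins, 81.7% (1962) were also in the lowest 20% by the median over Aphidicolin cells and 0 were in the highest 20%. Embryo by embryo, 62.1%, 59.7%, 67.9%, 82.1%, 82.5% and 36.7% of them fell in the lowest 20% of that Aphidicolin embryo's own ranking. In DMSO embryos, which chose them, it was 82.2%, 90.7% and 80.5%.

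Nearly all lowest-signal bins had a higher Aphidicolin mean than DMSO mean, taking the median over cells in each embryo: 2398 of 2401, where the background over all bins was 55.5%. All 6 Aphidicolin embryos lay above all 3 DMSO embryos in 315 of them (13.1%), where the background was 7.84%. The rule used this contrast, so nothing is read from either count. The median difference was 0.27 over the lowest-signal bins and 0.03 over all bins. The limma fit on embryo means over all 12005 bins called 0 lowest-signal bins at an adjusted p under 0.05, where the background was 0%. At an unadjusted p under 0.05 it had 249 of them (10.4%), all higher in Aphidicolin embryos, where the background was 8.31%. With means in place of medians over cells the median difference was 0.13, and -0.08 over all bins. With single cells and the embryo as a random block limma called 12 lowest-signal bins, all higher, where the background was 0.258% (31 bins). The estimated correlation within embryos was -0.029, so that fit took cells nearly as independent replicates. The rule used this contrast, so nothing is read from those calls.

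Around the centres of domains of at least 2 Mb, the profile formed a trough whose flat floor spanned the centre. In DMSO embryos, which chose the domains, a trough follows from the rule. Over the 75 such domains with data on both sides, the centre of DMSO embryos 1 to 3 was at -0.53, -0.77 and -0.43 and the flanks at 4 to 5 Mb at -0.10, -0.16 and -0.07. The centre of Aphidicolin embryos 1 to 6 was at -0.20, -0.14, -0.31, -0.48, -0.61 and -0.05, and their flanks lay between -0.12 and 0.01. The trough was 0.46 ± 0.13 deep in DMSO (SD, n = 3) and 0.27 ± 0.17 in Aphidicolin embryos (SD, n = 6). All 6 Aphidicolin embryos kept a trough, from 0.06 deep in embryo 6 to 0.49 in embryo 5.

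**Figure D3:**
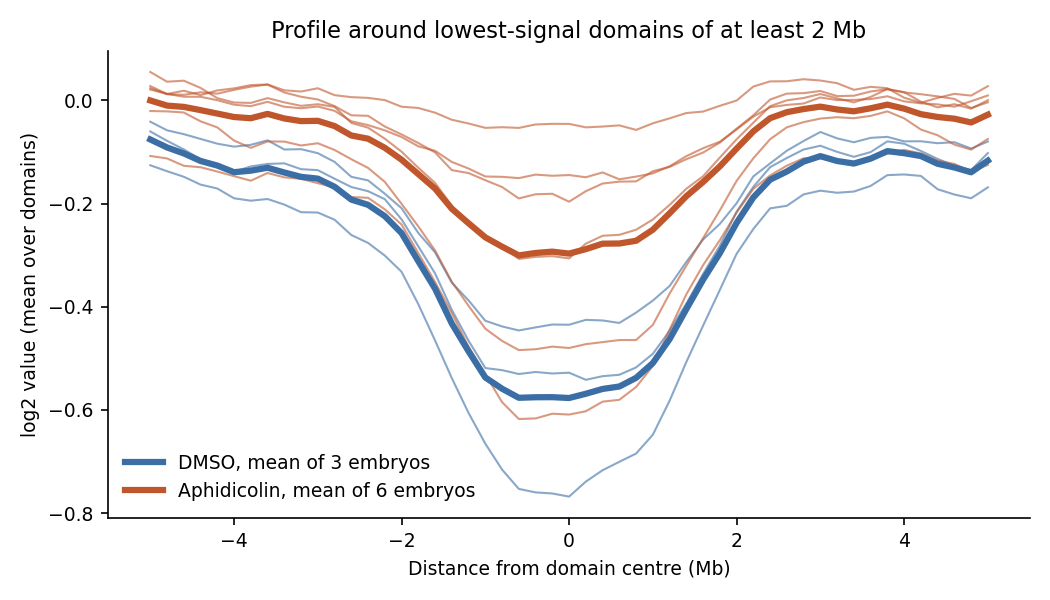
Mean log2 value against distance from the centre of lowest-signal domains of at least 2 Mb, for 3 DMSO (blue) and 6 Aphidicolin (orange) embryos, thin lines per embryo and thick lines group means. At the centre DMSO embryos lie between -0.77 and -0.43 and Aphidicolin embryos between -0.61 and -0.05.

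Single domains followed the same order. The longest, on chromosome 4 from 63800001 to 73200000, stood at -0.52, -0.67 and -0.46 in DMSO embryos 1 to 3. In Aphidicolin embryos 1 to 6 it stood at -0.16, -0.13, -0.29, -0.49, -0.73 and -0.06. The groups overlapped, since embryo 4 lay among the DMSO embryos and embryo 5 below them. The other 4 longest domains differed by between 0.22 and 0.28, each with overlap. With means in place of medians over the cells of an embryo, the difference was 0.10 instead of 0.28 on chromosome 3, 0.07 instead of 0.25 on chromosome 6 and 0.11 instead of 0.22 on chromosome 14. Of the 172 domains of at least 1 Mb, 171 had a higher Aphidicolin mean, by a median of 0.27, where the background over all bins was 55.5%. In 16 (of 172) all Aphidicolin embryos lay above all DMSO embryos, where the background over all bins was 7.84%. The DMSO values chose these domains, so nothing is read from either count.

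The largest differences were on chromosome 6 from 129400001 to 130800000 (0.47), chromosome 6 from 138400001 to 139800000 (0.39) and chromosome 3 from 75800001 to 78000000 (0.38). In the first, DMSO embryos stood at -0.49, -1.05 and -0.34 and Aphidicolin embryos at -0.38, -0.18, -0.02, -0.44, -0.22 and 0.29, and without DMSO embryo 2 the difference was 0.26. With means over cells in place of medians it was 0.21, and the difference of the other chromosome 6 domain was 0.15 and that of the chromosome 3 domain -0.16. Each of these domains held an Aphidicolin cell below -6, and such cells weigh on a mean and little on a median.

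The smallest differences were on chromosome 7 from 32400001 to 34400000 (-0.00), chromosome 14 from 88800001 to 90000000 (0.12) and chromosome 14 from 2600001 to 3600000 (0.14). The chromosome 14 domain from 88800001 stood at -0.54, -0.60 and -0.15 in DMSO embryos and at 0.04, -0.31, -0.25, -0.39, -0.91 and -0.03 in Aphidicolin embryos, with overlap. The domain from 2600001 stood at -0.62, -0.77 and -0.53 in DMSO and at -0.19, -0.19, -0.70, -0.90, -0.59 and -0.41 in Aphidicolin embryos, also with overlap.

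The domain with the lowest DMSO median, chromosome 7 from 32400001 to 34400000 (-0.94), varied widely between embryos of both groups. DMSO embryos 1 to 3 stood at -0.13, -1.98 and -0.63. Aphidicolin embryos 1 to 6 stood at -1.56, 0.04, -1.80, -0.77, -0.93 and -0.47. The difference of -0.00 between the group means was 0.39 without DMSO embryo 1 and -0.53 without DMSO embryo 2, so it has no settled direction. Cells of an embryo resembled each other: the 8 cells of DMSO embryo 2 lay between -2.50 and -1.63, below each cell of the other DMSO embryos, of which the lowest was at -0.97. The 8 cells of Aphidicolin embryo 3 lay between -1.92 and -1.37, while those of Aphidicolin embryo 4 lay between -1.16 and -0.59. In Aphidicolin embryo 6 the 7 cells ran from -2.77 to 0.33.

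Embryos of the DMSO group differed by more than 0.5 at 5 of the 172 domains of at least 1 Mb, a set singled out after its values were seen. Besides the domain just described, these were chromosome 7 from 67200001 to 70400000 (range 0.63), chromosome 6 from 129400001 to 130800000 (0.71), chromosome 6 from 131800001 to 133400000 (0.51) and chromosome 10 from 103200001 to 104400000 (0.61). In all 5, DMSO embryo 2 was the lowest, as it was among DMSO embryos in the level over all lowest-signal bins (-0.81). The median range over the 172 domains was 0.27. At these 5 domains a low value may belong to an embryo, and the cause of the differences was not tested.

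The other domains with the lowest DMSO medians differed by less than 0.5 between DMSO embryos, the measure that picked the set above. Over Aphidicolin embryos their ranges were 0.83, 0.47 and 0.74 in the order given here. At the chromosome 6 domain from 129400001 that range was 0.73. Chromosome 14 from 116200001 to 118000000 stood at -0.71, -0.78 and -0.49 in DMSO embryos and from -0.79 to 0.04 in Aphidicolin embryos. Chromosome 9 from 9800001 to 12200000 stood at -0.70, -0.70 and -0.53 and from -0.61 to -0.13. Chromosome 7 from 92400001 to 95000000 stood at -0.69, -0.75 and -0.52 and from -0.82 to -0.08. In each of these the groups overlapped.

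Copy-number breaks of Aphidicolin cells were not more frequent in the lowest-signal bins than along the genome; their share there was lower in each embryo. A break is a step between copy-number segments of at least 10 Mb inside a chromosome, after the profile common to all cells was removed, and breaks of 1 embryo within 2 Mb were joined to 1 site. A site counts as inside when at least 50% of the bins beside it are lowest-signal. Of 219 sites in Aphidicolin embryos, 28 (12.8%) were inside, while 21.4% of the positions that could hold a break (436 of 2033) were. Over all positions, 9.74% held a site of at least 1 Aphidicolin embryo: 5.73% of those in lowest-signal bins and 10.8% of the others.

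By embryo, the inside sites were 3 of 28, 5 of 24, 11 of 69, 2 of 24, 5 of 36 and 2 of 38 in Aphidicolin embryos 1 to 6. The shares were 10.7%, 20.8%, 15.9%, 8.33%, 13.9% and 5.26%. Each lay below 21.4%, with a mean difference of -8.95 ± 5.59 percentage points (SD, n = 6). The exact two-sided sign-flip permutation test gave p = 0.03125, the smallest possible, and an adjusted p of 0.09375, so the lower share did not pass 0.05. The exact 95% binomial intervals of single embryos included 21.4% except in embryo 6 (0.644% to 17.7%). DMSO embryos had 8 sites, of which 1 (12.5%, exact 95% interval 0.316% to 52.7%) was inside, too few to compare.

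The size of this difference depended on where the limit of the ranking was set. With the bottom 10% of bins it was -2.16 points, with the bottom 30% it was -4.81 points, and counting only sites with all bins on both sides lowest-signal it was -3.04 points. The mean was negative under all 24 alternative settings and left-out embryos. With the bottom 10% and 30% the exact permutation p was 0.156 and 0.25, above the 0.03125 that 6 embryos of 1 sign give. It was 0.0625 with segments of at least 20 Mb, with steps of 0.7, and with a common profile from DMSO alone. The same p came with all bins on both sides lowest-signal, and with bins chosen without DMSO embryo 1. Not every embryo was lower under any of those settings.

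The shares of breaks along the whole range of DMSO levels are given for comparison. The possible positions were split by DMSO level into 5 classes of 20% each. The mean shares of sites over the 6 Aphidicolin embryos, from the lowest to the highest class, were 13.3 ± 5.32%, 26.8 ± 3.56%, 20.8 ± 9.31%, 27.7 ± 6.05% and 11.4 ± 7.60% (SD, n = 6). The lowest and the highest class both lay under 20%, and no test of the differences between classes was made.

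**Figure D4:**
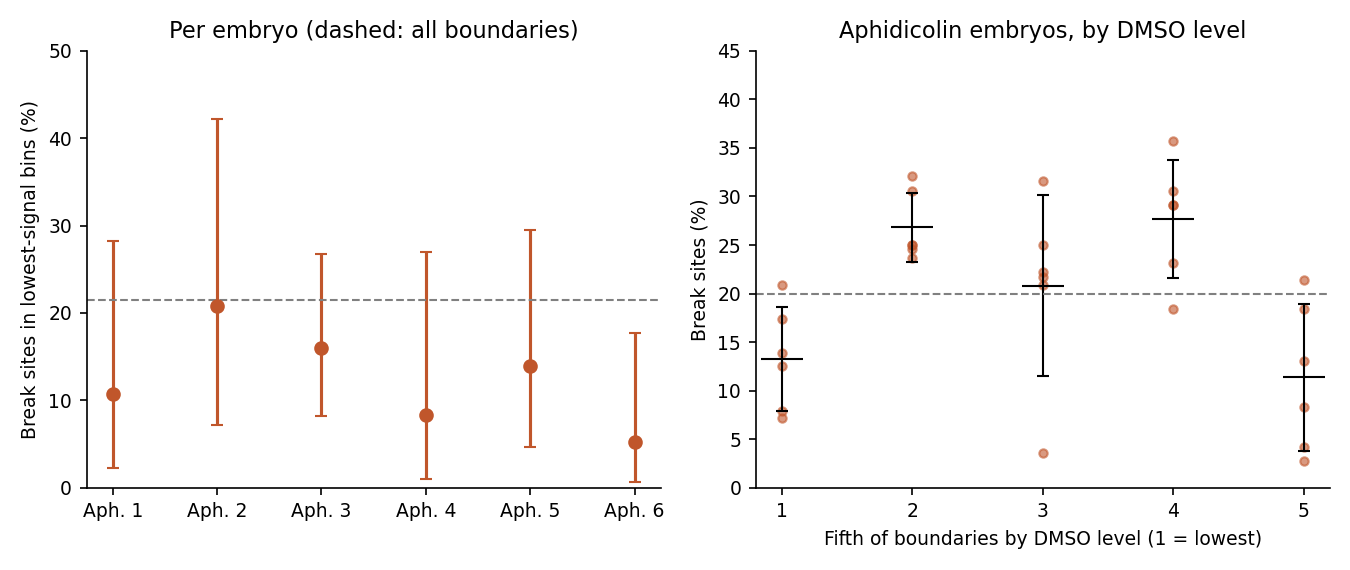
Left, percentage of each Aphidicolin embryo's break sites that lie in lowest-signal bins (points, with exact 95% binomial intervals) against the 21.4% of all possible positions (dashed). Right, percentage of sites in each of 5 classes of positions by DMSO level, points per embryo and black bars mean ± SD over 6 embryos, dashed line at 20%; the lowest and highest classes average 13.3% and 11.4%.

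At the edges of the domains the share of breaks did not differ from that of possible positions beyond the spread between embryos. Within 1 Mb of an end of a domain of at least 1 Mb lay 58 of the 219 sites (26.5%) and 27.5% of the possible positions. The mean difference was -1.72 ± 4.30 points (SD, n = 6; exact two-sided sign-flip permutation p = 0.375, adjusted 0.45), positive in 3 embryos and negative in 3. It depended on the setting: with segments of at least 20 Mb it was -6.62 points (same test, p = 0.03125, adjusted 0.09375), and with the bottom 30% of bins 6.76 points.

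Most break sites inside lowest-signal bins were shared by cells of the same embryo. Of the 28 sites, 17 (60.7%) were found in 2 or more cells of the embryo, against 149 of 191 (78.0%) elsewhere. At each of the 17, exactly 2 cells had 1 break each, and their steps ran in opposite directions. The same held for all 133 sites elsewhere that had 2 cells with 1 break each. On chromosome 15 at 69000000, Aphidicolin cell 36 fell from -0.02 to -0.99 while cell 39 went from -0.03 to 0.57. A log2 value of -1 is 1 of 2 copies. On chromosome 3 at 47000000, inside the domain of 8.2 Mb, cell 35 went from -0.00 to 0.62 and cell 41 from 0.03 to -0.91. In the same domain Aphidicolin embryo 3 had a site at 49000000, where cell 46 went from 0.00 to 0.61 and cell 47 from 0.13 to -0.97. Step sizes were taken over the breaks of single cells, not joined to sites. The 51 steps inside had a median size of 0.82 (quartiles 0.56 and 1.00), and the 370 elsewhere 0.73 (0.56 and 1.00). The joined sites held 45 breaks inside and 376 elsewhere.

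Most domains held no break site: 151 of the 172 of at least 1 Mb had 0, 17 had sites of 1 Aphidicolin embryo and 3 had sites of 2. A single domain, chromosome 2 from 107400001 to 109000000, had sites of 3 embryos, all at the boundary at 109000000 at its distal end. In Aphidicolin embryo 1, cell 30 fell there from -0.04 to -1.04 and cell 33 went from 0.00 to 0.57. In embryo 2, cell 35 fell from -0.96 to -8.49, near 0 copies, and cell 41 went from 0.59 to 1.06. In embryo 3, cell 49 fell from 0.47 to -0.07 and cell 50 went from -0.81 to 0.22. The steps thus ran in opposite directions in the 2 cells of each embryo, with the altered side distal in embryo 1 and proximal in embryo 3. Elsewhere, 4 of the 173 boundaries with a site had sites of 3 embryos, and in lowest-signal bins 1 of 25 did. The domain itself stood at -0.55, -0.61 and -0.46 in DMSO embryos and from -0.52 to -0.08 in Aphidicolin embryos.

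The coverage of lowest-signal windows by losses and gains did not differ from that of the other windows beyond the spread between embryos. In Aphidicolin embryos, losses covered 13.9 ± 4.84% of lowest-signal windows and 12.98 ± 4.44% of the others (SD, n = 6), a difference of 0.949 ± 1.46 points (exact two-sided sign-flip permutation p = 0.219, adjusted 0.328). Gains covered 13.4 ± 4.72% and 12.4 ± 4.11%, a difference of 0.951 ± 1.30 points (exact p = 0.188, adjusted 0.328). Without Aphidicolin embryo 5 the differences were 0.485 points for losses and 0.594 for gains. Each difference was positive in 4 embryos and negative in 2, and the tests do not show that the shares are equal. In DMSO embryos losses covered 0.126% and gains 0.162% of lowest-signal windows. Segments near 0 copies numbered 27, came from 15 cells and occurred in each of the 6 Aphidicolin embryos. Of their windows, 19.8% were lowest-signal, as were 19.3% of all windows.

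These coverages depend on the removal of the common profile. With values as deposited and no removal, lost coverage was 6.28 points higher in lowest-signal windows (exact permutation p = 0.03125, adjusted 0.046875) and the difference in gained coverage was -6.27 points (same p values). Low levels of the profile then count as losses by construction.

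Cell-to-cell spread, the scaled median absolute deviation over the cells of an embryo, averaged 0.173 in the lowest-signal bins of DMSO embryos and 0.259 in those of Aphidicolin embryos, with overlap. In the other bins it averaged 0.138 and 0.246. In DMSO embryos 1 to 3 it was 0.114, 0.156 and 0.248 in lowest-signal bins and 0.104, 0.133 and 0.175 in the others. In Aphidicolin embryos 1 to 6 it was 0.194, 0.183, 0.325, 0.221, 0.307 and 0.323 in lowest-signal bins. In the other bins of the same embryos it was 0.223, 0.234, 0.372, 0.189, 0.159 and 0.298. The difference between the kinds of bin averaged 0.013 ± 0.075 in Aphidicolin embryos (SD, n = 6; exact two-sided sign-flip permutation p = 0.781, adjusted 0.781), with 3 embryos either way. Without Aphidicolin embryo 5 it was -0.014. On chromosomes without a call, the spread of Aphidicolin embryos was 0.132 ± 0.017 in lowest-signal bins and 0.127 ± 0.024 in the others, and in DMSO embryos 0.173 ± 0.068 and 0.137 ± 0.035 (SD, n = 3). Noise between neighbouring windows was 0.107 ± 0.018 in lowest-signal windows and 0.121 ± 0.010 in the others of Aphidicolin embryos (SD, n = 6), but Aphidicolin embryo 5 went the other way (0.139 and 0.108). In DMSO embryos it was 0.116 ± 0.012 and 0.126 ± 0.008 (SD, n = 3).

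**Figure D5:**
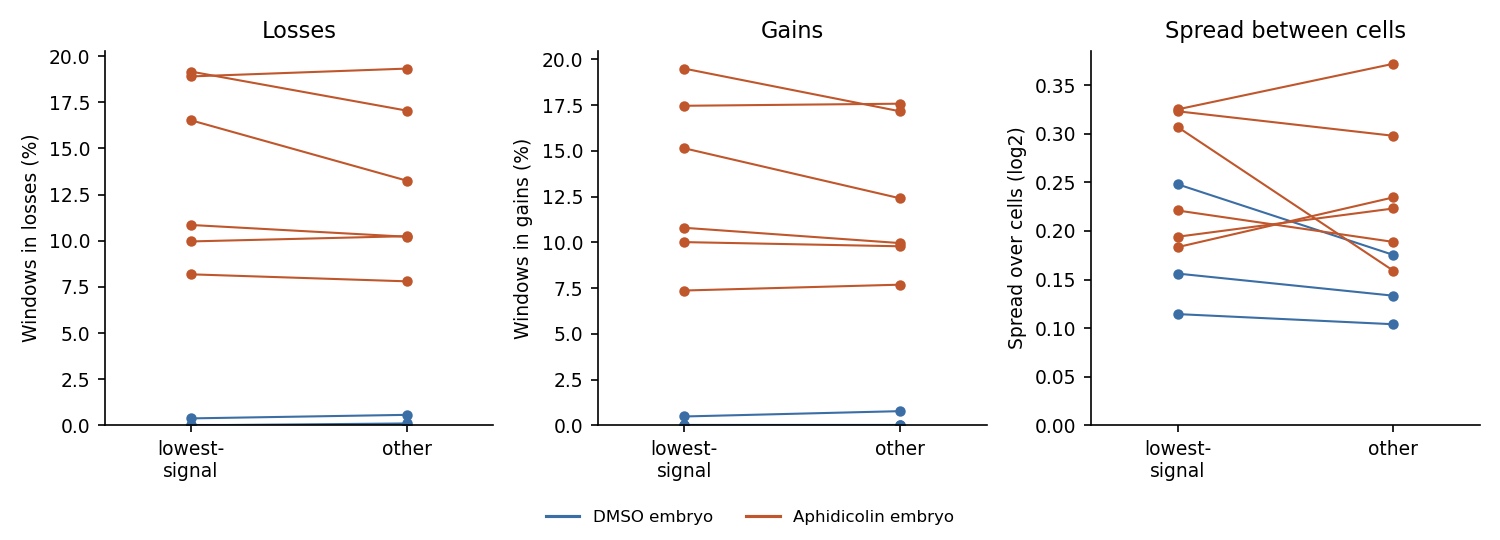
Percentage of windows in called losses (left) and gains (middle), and spread over cells in log2 units (right), in lowest-signal and other windows or bins; each line is 1 embryo (blue DMSO, n = 3; orange Aphidicolin, n = 6). Aphidicolin embryos differ between lowest-signal and other windows by 0.949 points on average for losses and 0.951 for gains, with both directions present.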

How the data were processed

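The authors deposited 1 log2 value per bin and cell, relative to the median of that cell, on mm9 per the submitters' processing notes; which aligner and filters they used is not stated in the labels or headers. The authors' metadata give, per the file headers, the embryo and collection window as other values, and a noise score and pass marks as scores; all 67 cells passed. In each cell 100% of values became whole reads (tolerance 0.01) when bins 5 steps apart shared a median. Differences between neighbouring bins correlated at -0.43 to -0.38 at a lag of 5 bins and at -0.01 to 0.10 at lags of 1 to 4, so bins were taken as overlapping 1-Mb windows. In the bins used, 469 missing values, all in Aphidicolin cells, were set to 0.5 reads.

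Medians over 2394 windows of 1 Mb (at least 3 bins) were fitted to the common profile of both treatments by Huber regression. The residuals were segmented by penalised least squares (penalty factor 4, minimum 10 Mb, steps under 0.35 merged). Gains lay above 0.32 and losses below -0.42. This gave 460 events in Aphidicolin cells and 11 in DMSO cells. A window or position was lowest-signal where at least 50% of its bins were. Embryo values are means over cells, except single bins and domains, which are medians over cells.

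The 6 measures of Aphidicolin embryos were tested by exact two-sided sign flips with Benjamini-Hochberg adjustment. limma 3.58.1 in R 4.3.3 was fitted to all bins, and scripts ran in Python 3.11.15. The limma fit, the read recovery and the segmentation were tested on simulated data, and the calling of breaks with steps planted in the DMSO cells. Whether breaks are found equally well inside and outside lowest-signal bins is not given here. Named domains are the 5 longest, the 5 of at least 1 Mb with the lowest DMSO median, the 3 and 3 with the highest and lowest difference, and those with break sites of 3 or more embryos. The bins and measures were chosen with earlier results of these data known. Intervals cover counting only.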

Additional observations from a re-analysis of the deposited data

How the results depend on the processing

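Each measure was recomputed under up to 15 other settings and with each embryo left out, re-choosing the bins where a DMSO embryo was left out. The level in Aphidicolin embryos stayed between -0.42 and -0.40 under other settings and between -0.46 and -0.36 without single embryos, and the difference from DMSO between 0.21 and 0.34. The break difference lay between -10.6 and -6.28 points without single embryos. With values as deposited and no removal of the common profile it was -11.6 points (adjusted p 0.046875), lost coverage was 6.28 points and gained coverage -6.27 points, and the edge difference was 4.64 points; low bins then enter the calls as losses. The edge difference was also positive with the bottom 30% of bins (6.76 points) and with edges within 2 Mb (0.59 points). It was negative under 21 of the 24 alternatives and left-out embryos and positive under 3. With segments of at least 20 Mb it was -6.62 points (exact sign-flip permutation p = 0.03125, adjusted 0.09375). The cause of these changes was not tested. Without single embryos, the difference in lost coverage lay between 0.485 and 1.22 points and that in gained coverage between 0.594 and 1.20 points, both lowest without Aphidicolin embryo 5; gained coverage was 0.374 points with steps of 0.7 between segments, and with the bottom 10% or 30% both lay between 0.477 and 0.644 points. The spread difference lay between -0.014 (without Aphidicolin embryo 5) and 0.026 without single embryos. limma called 0 lowest-signal bins in 11 of the 12 other fits and left-out embryos, and 12 with single cells and the embryo as a random block. That last fit took cells nearly as independent replicates. At an unadjusted p under 0.05, limma had 47 lowest-signal bins (1.96%) without DMSO embryo 2, where the background over all bins was 3.22%. Without Aphidicolin embryo 5 it had 701 (29.2%, background 11.95%). With called chromosomes set to missing it had 1517 (63.2%, background 25.17%). The 47 and 701 were the lowest and highest counts without single embryos. The DMSO values chose these bins, so nothing is read from these counts. For the 16 named domains, 160 alternatives were chosen after seeing the data, and 158 moved the difference by less than the SD over Aphidicolin embryos. That limit is wide where embryos vary. At the chromosome 7 domain from 32400001 (SD 0.68), values from -0.53 to 0.39 fell within it, so the count does not show a settled difference. Means over cells moved the difference to 0.15 and -0.16 in the domains of chromosomes 6 and 3 named above. Only sites with breaks in at least 2 cells, also chosen after seeing the data, gave -11.0 points inside and -3.06 at edges. No paired analysis was possible because each embryo received 1 treatment. The library numbers of the groups do not overlap, so library order cannot be told apart from treatment. With 6 embryos no p can go under 0.03125, and with 1 left out none under 0.0625. With 2 to 11 sites inside per embryo, single embryos limit the break share to wide intervals.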
